A study of Mus musculus with 12 samples.

Results

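The interferon regulatory factors (IRFs) and the signal transducers and activators of transcription (STATs) examined here were 9 mouse genes, Irf1, Irf2, Irf3, Irf5, Irf7, Irf8, Irf9, Stat2 and Stat3. They were taken as every spot of the array table annotated to those genes, which gave 1 spot for each gene, 9 of 16504 genes in all. The arrays compared RNA from mouse cells treated with pioglitazone, telmisartan or irbesartan with RNA from vehicle-treated cells. Each drug had 4 two-colour arrays, 12 in all. The odd-numbered arrays carried the drug's RNA in channel 1 and the even-numbered ones in channel 2. Each side of an array was RNA pooled from 3 independent cultures. The labels used here give no cell type, dose or exposure time. Whether one pool served several arrays of a drug, or one vehicle pool several drugs, is not stated in them. The array was therefore the unit of replication, and the p-values reflect array-to-array spread, part or all of which may be technical. Pioglitazone is a thiazolidinedione agonist of the nuclear receptor PPAR-gamma. Telmisartan and irbesartan are biphenyl blockers of the angiotensin II type 1 receptor, and the acidic group on the biphenyl is a carboxylic acid in telmisartan and a tetrazole in irbesartan.

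Cells answer type I interferon through the receptor chains Ifnar1 and Ifnar2 and the kinases Jak1 and Tyk2, which phosphorylate STAT proteins. STAT2 and IRF9 are subunits of the complex ISGF3, which binds interferon-stimulated response elements (ISREs) in genes such as Isg15 and Ifit3. Interferon-gamma acts through gamma-activated sites (GAS), to which STAT dimers bind, and raises IRF1, which in turn drives antigen-presentation genes. IRF3 and IRF7 are switched on by nucleic acid sensors and induce interferon itself. STAT3 carries signals of the interleukin-6 family to acute-phase genes such as Hp and to its own inhibitor Socs3. IRFs and STATs are regulated to a large extent by phosphorylation, which a transcript ratio does not measure.

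Promoters are shown for the 4 genes that hold a response-element match, for Irf7 and Irf9, whose transcripts differed between drugs, and for Stat3, whose transcript was lower with every drug. The sequences are RefSeq's, build GRCm38.p6, on the strand of the gene. The motifs searched on both strands, in the 250 bases before each start, were an ISRE-like GAAANNGAAA and a GAS-like TTCNNNGAA. The ISRE-like letters were in 978 of 32851 such windows (2.98%) and the GAS-like letters in 2306 (7.02%). Capitals mark the matches. Stat2 (chr10:128270248-128270347, plus strand) held an ISRE-like match on its reverse strand, 222 to 213 bases before the start. Irf2 (chr8:46739495-46739594, plus strand) held an ISRE-like match at 241 to 232 and a GAS-like match at 224 to 216. Irf1 (chr11:53769878-53769977, plus strand) held a GAS-like match at 90 to 82. Irf8 (chr8:120736150-120736249, plus strand) held 2 GAS-like matches, at 171 to 163 and 153 to 145. Irf1 and Irf8 each have another start, not shown, whose window held no match. No match was found in the windows of Irf7 (chr7:141266425-141266524, minus strand, shown), Irf9 (chr14:55603885-55603984, plus strand, shown), Stat3 (chr11:100939541-100939640, minus strand, shown), Irf3 or Irf5. A match describes letters and is no measurement of binding.
Stat2: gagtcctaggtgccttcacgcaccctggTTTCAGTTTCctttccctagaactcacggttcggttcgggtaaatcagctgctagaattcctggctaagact
Irf2: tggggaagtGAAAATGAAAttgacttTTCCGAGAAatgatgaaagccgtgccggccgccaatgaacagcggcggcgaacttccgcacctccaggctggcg
Irf1: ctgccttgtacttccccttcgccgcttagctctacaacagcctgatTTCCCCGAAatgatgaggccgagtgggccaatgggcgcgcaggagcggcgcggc
Irf8: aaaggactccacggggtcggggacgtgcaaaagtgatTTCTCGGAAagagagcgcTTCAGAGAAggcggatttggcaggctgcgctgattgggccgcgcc
Irf7: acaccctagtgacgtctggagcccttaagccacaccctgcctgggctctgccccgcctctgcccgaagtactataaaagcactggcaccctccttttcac
Irf9: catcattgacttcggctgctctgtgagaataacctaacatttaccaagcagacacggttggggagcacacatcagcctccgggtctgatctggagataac
Stat3: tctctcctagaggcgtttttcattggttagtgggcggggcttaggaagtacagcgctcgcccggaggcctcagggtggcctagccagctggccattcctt

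Values are log2 ratios of drug over vehicle, 1 per spot and array. The file gives no level for either side, so levels cannot be compared between genes and signal over background is unknown. The direction of the deposited ratios is likely and not stated: read as channel 2 over channel 1, 22 of 26 measured PPAR-gamma target genes lay above 0 on the pioglitazone arrays, as did 13 of the 14 that differed at least 1.5-fold. Under the other reading every sign below is turned. With the reading used, the adipocyte markers Adipoq, Lpl and Fabp4, which were not among those target genes, fitted at -0.95, -1.12 and -0.34 with pioglitazone. The limma adjusted p for Fabp4 was 0.0597. These signs run opposite to most of that list, which does not hold every PPAR-gamma target, so the direction is not settled. All 108 member values were present, while 7.47% to 20.17% of spots were empty on an array. Arrays of one drug correlated at 0.586 to 0.912 when they shared the channel order and at 0.295 to 0.730 when they did not. Telmisartan array 2 stood apart most, with a correlation of 0.586 to the other telmisartan array of its channel order and 0.303 to 0.586 to the telmisartan arrays in all. Member results that rest on it, and several list counts, are given with and without it. Values of single genes outside the members are from all arrays.

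One linear model of all 12 arrays, with a coefficient for each drug and a shared coefficient for the channel order, was fitted with limma to 17217 features, and p-values were adjusted over all of them by the Benjamini-Hochberg method. A value is called higher or lower at an adjusted p under 0.05. Under pioglitazone 1 member was higher and 3 were lower, where 23.6% of all features were higher and 26.3% lower. Under telmisartan 1 was higher and 2 were lower, against 19.9% and 21.1% of all features. Under irbesartan none was higher and 3 were lower, against 14.4% and 16.9%. The shares of members past the threshold thus lay near those of all features, and no excess is read from them. The median member value was -0.07 with pioglitazone, -0.05 with telmisartan and -0.06 with irbesartan, beside 0.00 over all features for each. Of the 54 member values, 5 stayed past the threshold in every alternative analysis run, namely Irf7 with pioglitazone, Stat2 with irbesartan, and Stat3 with all 3 drugs.

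**Figure D1:**
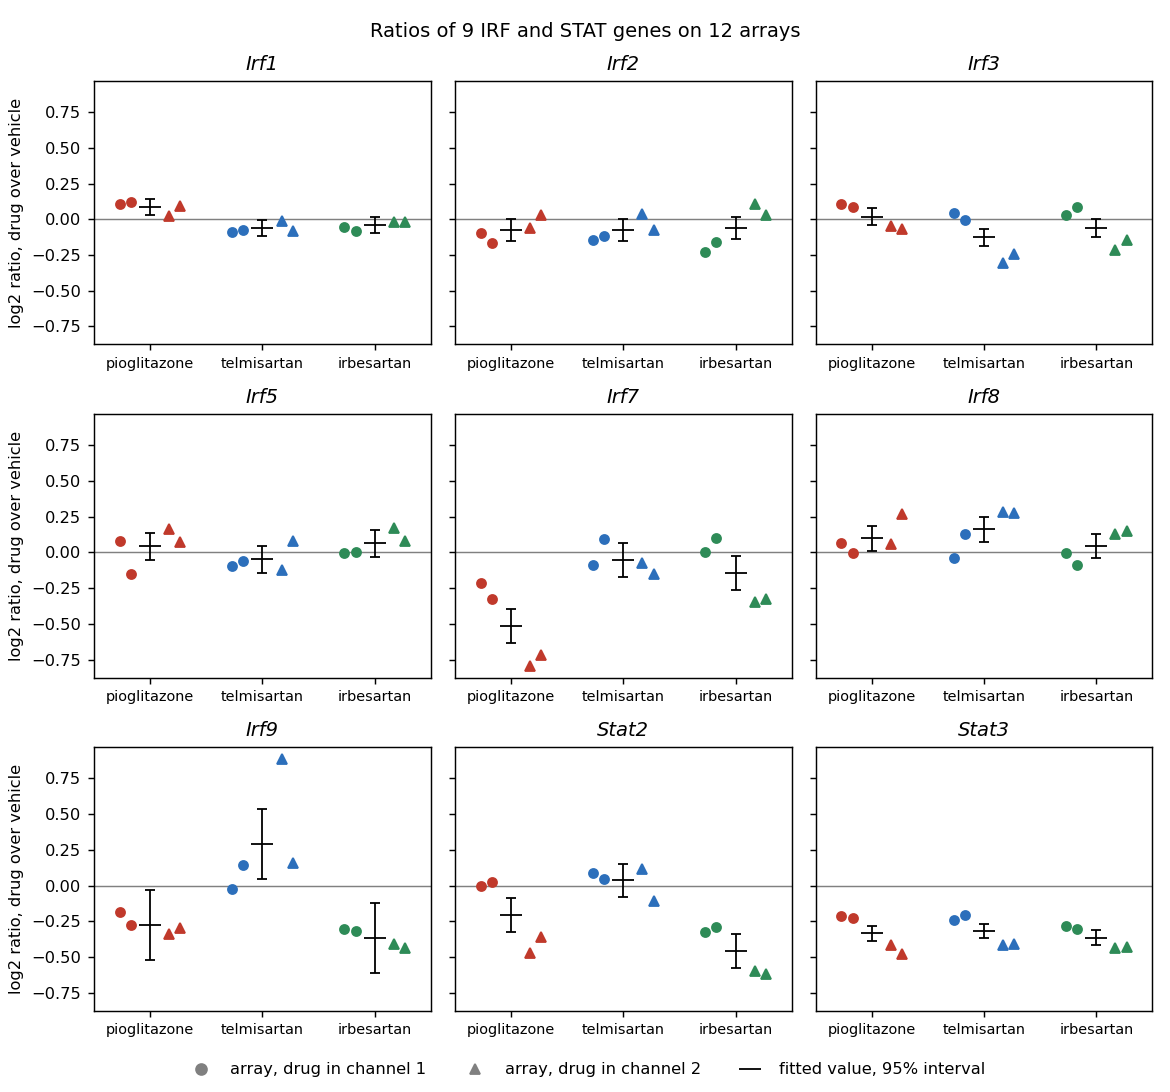
Log2 ratio of drug over vehicle (vertical axis) for each of the 9 genes on each of the 12 arrays, with pioglitazone, telmisartan and irbesartan from left to right and vehicle at the zero line. Circles are arrays with the drug in channel 1 and triangles those with it in channel 2. Black bars are the fitted values with 95% intervals. Stat3 lies below 0 on all 12 arrays, Irf7 is lowest with pioglitazone, and Stat2 and Irf9 lie below 0 on all 4 irbesartan arrays.

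Stat3, the transducer of interleukin-6 family signals, was lower with each drug and by nearly the same amount. Its log2 ratios were -0.22, -0.42, -0.23 and -0.48 on pioglitazone arrays 1 to 4, -0.24, -0.41, -0.21 and -0.41 on telmisartan arrays, and -0.29, -0.44, -0.31 and -0.43 on irbesartan arrays. All 12 lie below 0, and within each drug the arrays with the drug in channel 2 lie lower. The fitted values were -0.34 ± 0.02 with pioglitazone (SE, n = 4 arrays, limma adjusted p = 4.64e-07), -0.32 ± 0.02 with telmisartan (limma adjusted p = 1.32e-06) and -0.37 ± 0.02 with irbesartan (limma adjusted p = 6.61e-07). The drugs' arrays overlap, and no difference between drugs passed the threshold. The difference was -0.02 (95% interval -0.09 to 0.06) for pioglitazone over telmisartan, 0.03 (-0.04 to 0.10) for pioglitazone over irbesartan and 0.05 (-0.03 to 0.12) for telmisartan over irbesartan. When the arrays were scaled to one spread, pioglitazone over irbesartan was 0.13 (limma adjusted p = 0.028) and telmisartan over irbesartan 0.13 (limma adjusted p = 0.0324).

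Irf7, which amplifies type I interferon production, was lower with pioglitazone. The log2 ratios of Irf7 were -0.21, -0.79, -0.33 and -0.72 on pioglitazone arrays 1 to 4, all below 0. They were -0.08, -0.07, 0.10 and -0.15 on telmisartan arrays and 0.0024, -0.35, 0.10 and -0.32 on irbesartan arrays. The pioglitazone arrays do not overlap the telmisartan arrays, and they overlap the irbesartan arrays. The fitted value was -0.51 ± 0.05 with pioglitazone (SE, n = 4 arrays, limma adjusted p = 1.17e-05). It was -0.05 ± 0.05 with telmisartan (limma adjusted p = 0.458) and -0.14 ± 0.05 with irbesartan (limma adjusted p = 0.0713). Pioglitazone was lower than telmisartan by a log2 difference of -0.46 ± 0.08 (limma adjusted p = 0.00238) and than irbesartan by -0.37 ± 0.08 (limma adjusted p = 0.00676). Telmisartan and irbesartan differed by 0.09 (95% interval -0.08 to 0.25), which did not pass the threshold. The irbesartan value passed the threshold in 7 of 24 alternatives. Among them, at an unchanged -0.14, were the fits without telmisartan array 1 (limma adjusted p = 0.0248) or array 2 (limma adjusted p = 0.0417). It also passed with each drug fitted alone (limma adjusted p = 0.0123) and with array weights (limma adjusted p = 0.0225). With arrays of one drug and channel order averaged, which leaves 2 values a drug, both pioglitazone differences lost the threshold (limma adjusted p = 0.158 and 0.187).

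Stat2, the STAT particular to ISGF3, was lower with pioglitazone and with irbesartan. The 4 log2 ratios of Stat2 were -0.0031, -0.48, 0.02 and -0.36 on pioglitazone arrays 1 to 4, 0.08, 0.12, 0.05 and -0.11 on telmisartan arrays, and -0.32, -0.60, -0.29 and -0.62 on irbesartan arrays. Every telmisartan array lay above every irbesartan array. The pioglitazone arrays split by channel order, near 0 with the drug in channel 1 and low with it in channel 2. The fitted value was -0.20 ± 0.05 with pioglitazone (SE, n = 4 arrays, limma adjusted p = 0.00777), 0.04 ± 0.05 with telmisartan (limma adjusted p = 0.637) and -0.46 ± 0.05 with irbesartan (limma adjusted p = 5.22e-05). Without telmisartan array 2 the telmisartan value was -0.04 (limma adjusted p = 0.413). The pioglitazone call was lost without pioglitazone array 2 (-0.15, limma adjusted p = 0.0558) and without the channel-order coefficient (limma adjusted p = 0.0835). Telmisartan was higher than irbesartan by 0.49 ± 0.08 (limma adjusted p = 0.0034; 0.334 with arrays of one drug and channel order averaged). Pioglitazone over irbesartan was 0.25 ± 0.08 (limma adjusted p = 0.0398), a call lost in 13 of 26 alternatives. Pioglitazone over telmisartan was -0.24 (95% interval -0.41 to -0.07, limma adjusted p = 0.057).

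Irf9, the DNA-binding subunit of ISGF3, was lower with irbesartan. Its log2 ratios were -0.19, -0.34, -0.28 and -0.30 on pioglitazone arrays 1 to 4, -0.02, 0.89, 0.14 and 0.16 on telmisartan arrays, and -0.30, -0.41, -0.32 and -0.44 on irbesartan arrays. All 4 arrays of pioglitazone and of irbesartan lie below all 4 telmisartan arrays, and telmisartan array 2 is far above the other three. The fitted value was -0.28 ± 0.11 with pioglitazone (SE, n = 4 arrays, limma adjusted p = 0.0578), 0.29 ± 0.11 with telmisartan (limma adjusted p = 0.0559) and -0.37 ± 0.11 with irbesartan (limma adjusted p = 0.0252). Pioglitazone over telmisartan was -0.57 ± 0.16 (limma adjusted p = 0.0331) and telmisartan over irbesartan 0.66 ± 0.16 (limma adjusted p = 0.0246). These calls were lost in 11 and 7 of 26 alternatives. Pioglitazone over irbesartan was 0.09 (95% interval -0.25 to 0.43). Telmisartan array 2 widens the spread for this gene. Without it the pioglitazone value was -0.28 (limma adjusted p = 0.00011), the telmisartan value was 0.08 (limma adjusted p = 0.149) and the irbesartan value was -0.37 (limma adjusted p = 2.51e-05). Without it pioglitazone over telmisartan was -0.36 (limma adjusted p = 0.00261) and telmisartan over irbesartan 0.45 (limma adjusted p = 0.00184). With it in the fit, the irbesartan call was lost without irbesartan array 2 (limma adjusted p = 0.104), array 3 (0.051) or array 4 (0.113).

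Irf1, the factor induced by interferon-gamma, moved by small amounts. Irf1 log2 ratios were 0.11, 0.03, 0.12 and 0.09 on pioglitazone arrays 1 to 4, -0.09, -0.01, -0.07 and -0.08 on telmisartan arrays, and -0.05, -0.02, -0.08 and -0.02 on irbesartan arrays. All pioglitazone arrays lie above 0 and all others below. The fitted value was 0.09 ± 0.03 with pioglitazone (SE, n = 4 arrays, limma adjusted p = 0.0168), a call lost without pioglitazone array 1, 3 or 4 (limma adjusted p = 0.0755, 0.0835 and 0.0555). It was -0.06 ± 0.03 with telmisartan (limma adjusted p = 0.0764; -0.08 and 0.0446 without telmisartan array 2) and -0.04 ± 0.03 with irbesartan (limma adjusted p = 0.299). Pioglitazone was higher than telmisartan by 0.15 ± 0.04 (limma adjusted p = 0.0203) and than irbesartan by 0.13 ± 0.04 (limma adjusted p = 0.0358), calls that were lost in 11 and 15 of 26 alternatives.

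Irf3, the factor that sensors activate through the kinase Tbk1, was lower with telmisartan. Its log2 ratios were 0.11, -0.05, 0.09 and -0.07 on pioglitazone arrays 1 to 4, 0.04, -0.30, -0.0022 and -0.24 on telmisartan arrays, and 0.03, -0.21, 0.09 and -0.14 on irbesartan arrays. With each drug the channel 2 arrays lie below the channel 1 arrays. The fitted value was 0.02 ± 0.03 with pioglitazone (SE, n = 4 arrays, limma adjusted p = 0.589), -0.13 ± 0.03 with telmisartan (limma adjusted p = 0.00391) and -0.06 ± 0.03 with irbesartan (limma adjusted p = 0.151). Without the channel-order coefficient the telmisartan call was lost (limma adjusted p = 0.195). Pioglitazone over telmisartan was 0.15 ± 0.04 (limma adjusted p = 0.0314), a call lost in 16 of 26 alternatives, among them the fit without telmisartan array 2 (0.12, limma adjusted p = 0.0668).

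Irf8, a factor of myeloid cells, was higher with telmisartan. Its log2 ratios were 0.07, 0.06, -0.0017 and 0.27 on pioglitazone arrays 1 to 4, -0.04, 0.28, 0.13 and 0.27 on telmisartan arrays, and -0.0027, 0.13, -0.09 and 0.15 on irbesartan arrays. The arrays of the 3 drugs overlap. The fitted value was 0.10 ± 0.04 with pioglitazone (SE, n = 4 arrays, limma adjusted p = 0.0548; 0.00925 without pioglitazone array 2, at 0.15), 0.16 ± 0.04 with telmisartan (limma adjusted p = 0.00596) and 0.05 ± 0.04 with irbesartan (limma adjusted p = 0.429). The telmisartan call held without telmisartan array 2 (0.15, limma adjusted p = 0.0222). It was lost without the channel-order coefficient (limma adjusted p = 0.0751), with each drug fitted alone (0.0561) and with arrays of one drug and channel order averaged (0.0601). No difference between drugs passed the threshold. Of 9 macrophage and myeloid marker genes tested, 1 was higher and 2 were lower with telmisartan, against 19.9% and 21.1% of all features. These counts lay near or below those shares, and nothing is read from them. The values of the 9 marker genes with the 3 drugs ranged from -0.19 to 0.11. Their part in the Irf8 value was not tested.

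Irf2, which can act as a repressor at IRF1 sites, and Irf5, a factor downstream of Toll-like receptors, passed the threshold in none of the 6 limma comparisons, at unadjusted p-values of 0.0555 or more for Irf2 and 0.0927 or more for Irf5. Irf2 fitted at -0.07 ± 0.03 with pioglitazone, -0.07 ± 0.03 with telmisartan and -0.06 ± 0.03 with irbesartan. Its arrays ranged from -0.16 to 0.03 with pioglitazone, -0.15 to 0.04 with telmisartan and -0.23 to 0.11 with irbesartan. Irf5 fitted at 0.04 ± 0.04, -0.05 ± 0.04 and 0.06 ± 0.04 in the same order. Its arrays ranged from -0.15 to 0.17 with pioglitazone, -0.12 to 0.08 with telmisartan and -0.0048 to 0.17 with irbesartan.

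The 9 genes gave 27 differences between drugs, of which 9 passed the threshold. For pioglitazone over telmisartan 2 members were higher and 2 lower, against 6.07% and 8.60% of all features. For pioglitazone over irbesartan 2 were higher and 1 lower, against 7.62% and 10.5%. For telmisartan over irbesartan, the pair that differs in the acidic group and in the rest of the molecule outside the biphenyl, 2 were higher (Stat2 and Irf9) and none lower, against 4.96% and 4.42%. The labels give no doses, so matching of doses is unknown. For that pair the other 7 members had 95% intervals that include 0, such as -0.12 to 0.10 for Irf2, -0.10 to 0.06 for Irf1 and -0.25 to 0.02 for Irf5.

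**Figure D2:**
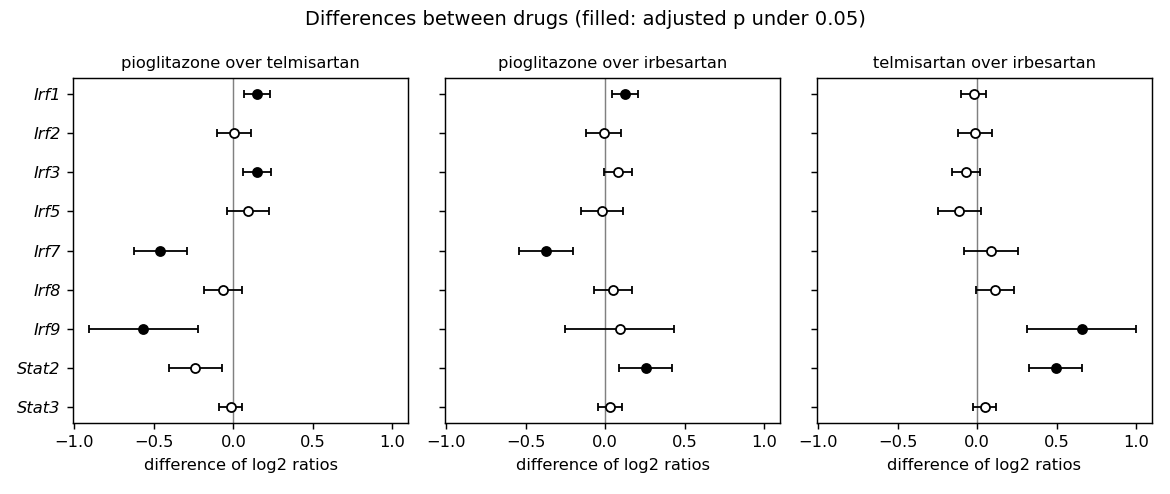
Difference of log2 ratios (horizontal axis) for each of the 9 genes and each pair of drugs, with 95% intervals. Filled points have an adjusted p under 0.05. Irf7 is below 0 in both pioglitazone panels, and Stat2 and Irf9 are the filled points for telmisartan over irbesartan.

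The receptors and kinases that feed STATs were lower or did not pass the threshold. Of 9 receptor chains tested, 5 were lower with pioglitazone, 5 with telmisartan and 4 with irbesartan, and none was higher. These are 55.6%, 55.6% and 44.4% of the chains, against 26.3%, 21.1% and 16.9% of all features. Ifnar1, a chain of the type I interferon receptor, was -0.28 ± 0.03 with pioglitazone, -0.23 ± 0.03 with telmisartan and -0.20 ± 0.03 with irbesartan (limma adjusted p = 1.08e-05, 6.94e-05 and 0.000229). Il6st, the shared chain of interleukin-6 family receptors, was -0.23, -0.17 and -0.25 in that order, and Il10rb -0.32, -0.29 and -0.32, each past the threshold. Osmr, the oncostatin M receptor, was -0.08 ± 0.04 with pioglitazone, which missed the threshold (limma adjusted p = 0.1), against -0.57 ± 0.04 with telmisartan and -0.59 ± 0.04 with irbesartan. Osmr was higher with pioglitazone than with telmisartan by 0.48 ± 0.05 (limma adjusted p = 0.000269) and than with irbesartan by 0.51 ± 0.05 (limma adjusted p = 0.000134). Ifngr1, a chain of the interferon-gamma receptor, was lower with pioglitazone (-0.15) and telmisartan (-0.26) and fitted at -0.0013 with irbesartan (limma adjusted p = 0.987). Il6ra was lower with pioglitazone (-0.13), at -0.09 with telmisartan and -0.02 with irbesartan. Ifnar2, Ifngr2 and Lifr passed the threshold with no drug, at -0.26, -0.04 and -0.03 with pioglitazone, -0.20, -0.06 and -0.02 with telmisartan and -0.30, -0.11 and -0.02 with irbesartan. For Ifnar2 the irbesartan value narrowly missed the threshold (limma adjusted p = 0.0554). Its ratios on telmisartan arrays 1 to 4 were -0.21, 0.26, -0.32 and -0.52, with array 2 alone above 0. Without telmisartan array 2, 6, 6 and 5 receptor chains were lower.

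Of the 4 Janus kinases, 3 were lower with pioglitazone, 3 with telmisartan and 1 with irbesartan, a list too short to set against the shares of all features. Jak1 was -0.53 ± 0.04 with pioglitazone, -0.42 ± 0.04 with telmisartan and -0.46 ± 0.04 with irbesartan (limma adjusted p = 1.9e-06, 1.86e-05 and 1.21e-05). Jak3 was -0.36 with pioglitazone and -0.38 with telmisartan, and it was -0.07 with irbesartan, which missed the threshold. Both drugs were lower than irbesartan for Jak3, by -0.29 ± 0.06 for pioglitazone and -0.30 ± 0.06 for telmisartan (limma adjusted p = 0.00729 and 0.0106). Tyk2 was -0.38 with pioglitazone and -0.22 with telmisartan, and -0.14 with irbesartan, which missed the threshold. Its ratios were -0.01, -0.70, -0.02 and -0.80 on pioglitazone arrays 1 to 4, which split by channel order. Jak2 missed the threshold with each drug (-0.28, 0.10 and -0.19), and pioglitazone array 1 alone stood at -1.16. Without telmisartan array 2, 3, 3 and 2 Janus kinases were lower with pioglitazone, telmisartan and irbesartan.

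Among the other IRF and STAT genes tested, Stat5a, which transmits growth hormone and prolactin signals, was lower with pioglitazone at -0.38 ± 0.03 (limma adjusted p = 3.26e-06) and with telmisartan at -0.10 ± 0.03 (limma adjusted p = 0.03), and was at 0.02 ± 0.03 with irbesartan. Pioglitazone was below telmisartan by -0.27 ± 0.05 (limma adjusted p = 0.00315) and below irbesartan by -0.40 ± 0.05 (limma adjusted p = 0.000265). Stat6, the transducer of interleukin-4, was lower with pioglitazone (-0.40) and telmisartan (-0.36) and missed the threshold with irbesartan (-0.20). Stat5b was higher with pioglitazone (0.13) and telmisartan (0.18), and 0.05 with irbesartan. Irf4 was higher with telmisartan alone (0.15, limma adjusted p = 0.0381), at 0.01 with pioglitazone and -0.01 with irbesartan, and its differences between drugs did not pass the threshold. Without telmisartan array 2, 1 of these other IRF and STAT genes was lower with irbesartan and 2 were lower for telmisartan over irbesartan. With all arrays none passed in either comparison. The co-repressors Irf2bp2 and Irf2bpl were lower with each drug, Irf2bpl at -0.47 with pioglitazone, -0.47 with telmisartan and -0.35 with irbesartan.

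Inhibitors of the pathway moved in both directions. Of their 18 spots, 4 were higher and 10 lower with pioglitazone, 4 and 5 with telmisartan, and 3 and 6 with irbesartan. The lower spots were 55.6%, 27.8% and 33.3% of the list, against 26.3%, 21.1% and 16.9% of all features, and the higher ones 22.2%, 22.2% and 16.7%, against 23.6%, 19.9% and 14.4%. The higher counts, and the lower count with telmisartan, thus lay near the shares of all features, and nothing is read from them. Without telmisartan array 2 the telmisartan counts were 4 higher and 7 lower, so the lower count depends on that array. Socs1, which blocks Janus kinases, was -0.56 ± 0.05, -0.43 ± 0.05 and -0.32 ± 0.05 with pioglitazone, telmisartan and irbesartan. Socs2 was -0.29, -0.46 and -0.60 in that order. The phosphatase gene Ptpn2 was higher, at 0.41, 0.38 and 0.17, as was Usp18, an interferon-induced brake on the type I receptor, at 0.22, 0.66 and 0.33. The 3 spots of Ptpn11 disagreed in sign. Sensors, adaptors and kinases upstream of IRFs, with 15 spots, had 4 higher and 5 lower with pioglitazone, 3 and 4 with telmisartan and 1 and 5 with irbesartan. With pioglitazone and telmisartan these counts lay near the shares of all features (26.7% and 33.3% of the list with pioglitazone), and nothing is read from them. Without telmisartan array 2 the telmisartan counts were 2 higher and 7 lower, so they depend on that array. With irbesartan 14.4% of all features were higher and 16.9% lower. The list is short, and nothing is read from its irbesartan counts either. The Toll-like receptor Tlr4 was -0.35, -0.43 and -0.49 and the kinase Irak1 -0.44, -0.49 and -0.29. With all arrays, no difference between drugs passed the threshold by limma for these 15 spots. At an unadjusted p under 0.05 were 0, 5 and 3 for pioglitazone over telmisartan, pioglitazone over irbesartan and telmisartan over irbesartan. Without telmisartan array 2, 1 spot was lower for telmisartan over irbesartan.

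**Figure D3:**
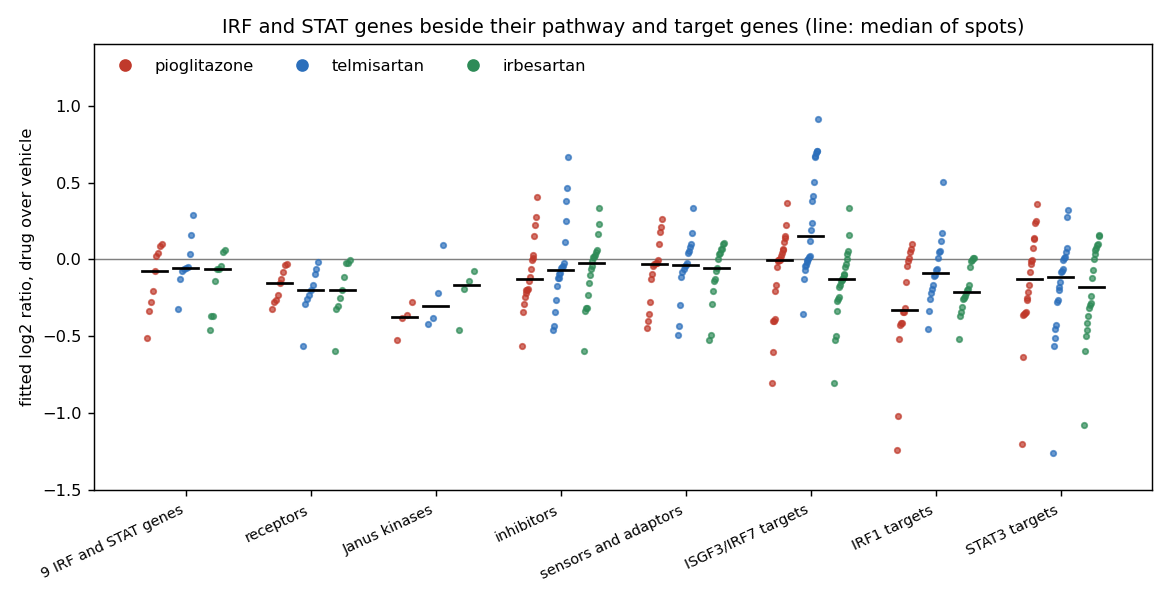
Fitted log2 ratio of drug over vehicle (vertical axis) for each spot of the 9 IRF and STAT genes and of 7 lists of pathway and target genes, with pioglitazone, telmisartan and irbesartan from left to right. Points are spots and black lines are medians. The median of the ISGF3 and IRF7 target genes is 0.15 with telmisartan and -0.13 with irbesartan.

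Target genes of ISGF3 and IRF7 were mostly higher with telmisartan and mostly lower with irbesartan among those past the threshold. Of 22 tested, 3 were higher and 6 lower with pioglitazone, 11 and 1 with telmisartan, and 2 and 11 with irbesartan. With pioglitazone this was 13.6% and 27.3% of the list, with telmisartan 50.0% and 4.5%, and with irbesartan 9.1% and 50.0%. Of all features 23.6% were higher and 26.3% lower with pioglitazone, 19.9% and 21.1% with telmisartan, and 14.4% and 16.9% with irbesartan. The lower share with pioglitazone thus lay near that of all features, and nothing is read from it. The higher shares with pioglitazone and irbesartan lay below those of all features, but they rest on 3 and 2 genes, and nothing is read from them. The medians of the 22 target genes were 0.00, 0.15 and -0.13, beside 0.00 for all features. For telmisartan over irbesartan 11 were higher and none lower, against 4.96% and 4.42% of all features. For pioglitazone over telmisartan none was higher and 10 were lower, against 6.07% and 8.60%. Without telmisartan array 2 the telmisartan counts were 12 and 2, and telmisartan over irbesartan had 12 higher and none lower.

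Isg15, a ubiquitin-like interferon effector, had log2 ratios of 0.42, -0.24, 0.36 and -0.09 on pioglitazone arrays 1 to 4, 1.13, 0.71, 1.20 and 0.63 on telmisartan arrays and 0.16, -0.62, 0.17 and -0.75 on irbesartan arrays. All telmisartan arrays lie above the others. The fitted values were 0.11 ± 0.05 with pioglitazone, 0.92 ± 0.05 with telmisartan and -0.26 ± 0.05 with irbesartan (limma adjusted p = 0.103, 2.1e-07 and 0.00262). Ifit3, whose product binds other IFIT proteins, had -0.77, -0.92, -0.67 and -0.84 on pioglitazone arrays, 0.42, 0.60, 0.32 and 0.30 on telmisartan arrays and -0.78, -0.95, -0.80 and -0.69 on irbesartan arrays. Here pioglitazone lay with irbesartan (difference 0.0042, 95% interval -0.18 to 0.18) and below telmisartan by -1.21 ± 0.08 (limma adjusted p = 8.07e-06). Rtp4 and Mx2, both interferon-induced, were -0.0016 and 0.14 with pioglitazone, 0.70 and 0.70 with telmisartan, and -0.27 and -0.18 with irbesartan, and all but the first of these passed the threshold. Eif2ak2, which encodes the double-stranded RNA sensor kinase PKR, was higher with each drug, at 0.37 ± 0.04, 0.68 ± 0.04 and 0.16 ± 0.04 with pioglitazone, telmisartan and irbesartan. Ifitm3, a restriction factor against virus entry, was lower with each drug, at -0.60 ± 0.03, -0.35 ± 0.03 and -0.50 ± 0.03, and was the 1 target lower with telmisartan. Bst2, which tethers budding virus particles, was -0.40 with pioglitazone, 0.24 with telmisartan and -0.33 with irbesartan, each past the threshold. Ifit1, an RNA-binding effector, was higher with telmisartan (0.69 ± 0.14, limma adjusted p = 0.00227), and its values of -0.05 with pioglitazone and -0.24 with irbesartan missed the threshold.

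**Figure D4:**
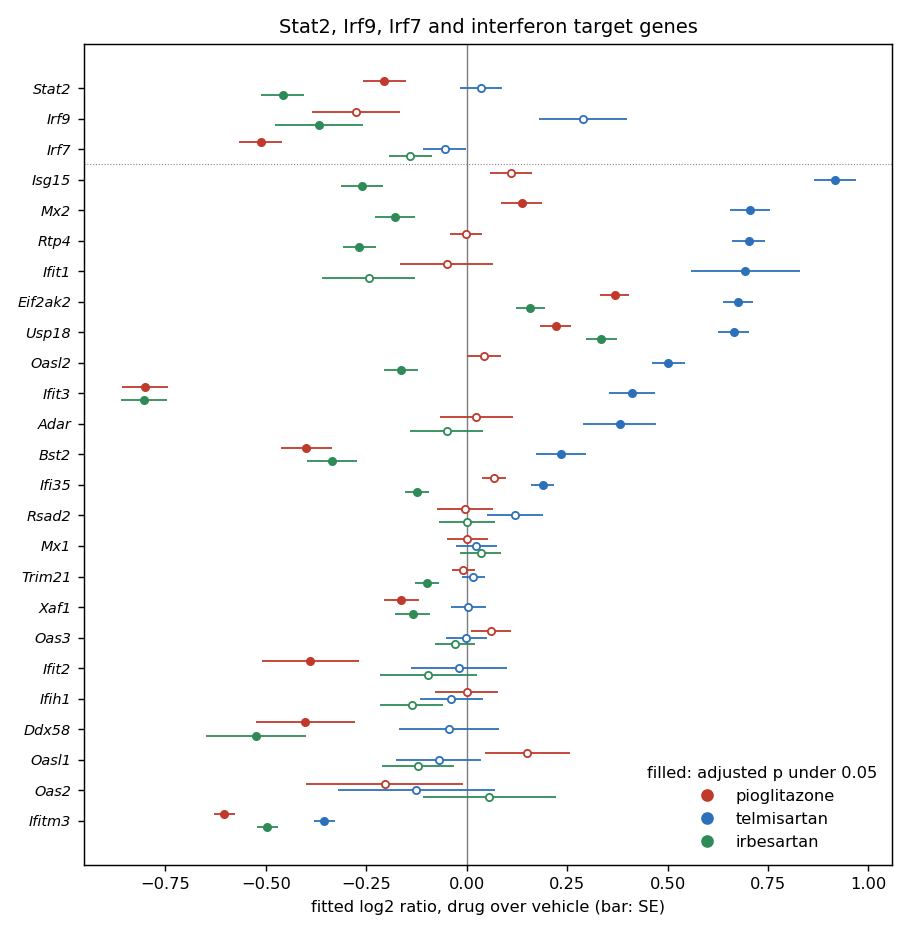
Fitted log2 ratio of drug over vehicle with its SE (horizontal axis) for Stat2, Irf9 and Irf7 above the dotted line and 22 target genes of ISGF3 and IRF7 below it, sorted by the telmisartan value. Colours mark the drugs and filled points have an adjusted p under 0.05. Telmisartan lies to the right of irbesartan for Stat2, Irf9 and most targets, from Isg15 (0.92 and -0.26) to Ifit3 (0.41 and -0.80).

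Among 16 target genes of IRF1, none was higher and 10 were lower with pioglitazone, 3 and 6 with telmisartan, and none and 9 with irbesartan, while Irf1 itself was at 0.09, -0.06 and -0.04. The lower genes were 62.5%, 37.5% and 56.2% of the list, against 26.3%, 21.1% and 16.9% of all features. Without telmisartan array 2, 10 were lower with irbesartan. The guanylate-binding protein Gbp3 was -1.02 ± 0.03 with pioglitazone, 0.50 ± 0.03 with telmisartan and -0.23 ± 0.03 with irbesartan. Il15, a lymphocyte growth factor, was -1.24 ± 0.06, -0.45 ± 0.06 and -0.52 ± 0.06. The peptide-loading gene Tapbp was -0.41, -0.34 and -0.34, and the immunoproteasome subunit Psmb8 was -0.34, -0.22 and -0.19. The peptide transporter genes Tap1 and Tap2 were lower with pioglitazone (-0.41 and -0.52). With telmisartan Tap2 was lower (-0.26) and Tap1 missed the threshold (-0.17), and with irbesartan Tap1 was lower (-0.25) and Tap2 missed it (-0.20). Psmb9, another immunoproteasome subunit, was lower with pioglitazone (-0.43) and missed the threshold with telmisartan (-0.10) and irbesartan (-0.17). Igtp and Irgm1, GTPases of the interferon-gamma response, were -0.34 and -0.15 with pioglitazone, 0.17 and 0.12 with telmisartan and -0.37 and -0.31 with irbesartan, each past the threshold.

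Among 20 target genes of STAT3, 5 were higher and 10 lower with pioglitazone, 2 and 9 with telmisartan, and 3 and 10 with irbesartan. The lower genes were 50.0%, 45.0% and 50.0% of the list, against 26.3%, 21.1% and 16.9% of all features, and the higher counts lay near or below the shares of all features. Without telmisartan array 2, 2 were higher and 11 lower with telmisartan. Hp, the acute-phase protein haptoglobin, was -1.20 ± 0.03, -1.26 ± 0.03 and -1.08 ± 0.03 with pioglitazone, telmisartan and irbesartan. Socs3, the feedback inhibitor of STAT3, was -0.34 ± 0.04, -0.26 ± 0.04 and -0.32 ± 0.04, and Cebpd -0.35, -0.42 and -0.46. Ccnd1, which encodes cyclin D1, was -0.36, -0.51 and -0.37, and Il4ra, a chain of the interleukin-4 receptor, -0.35, -0.20 and -0.24, each past the threshold. Timp1, a metalloproteinase inhibitor, was lower with pioglitazone (-0.63) and irbesartan (-0.50) and missed the threshold with telmisartan (-0.15). Junb was at -0.0018 with pioglitazone (limma adjusted p = 0.97), against -0.45 with telmisartan and -0.41 with irbesartan. Cebpb and Hif1a were higher with each drug, Cebpb at 0.36, 0.27 and 0.15 and Hif1a at 0.24, 0.32 and 0.10. The comparisons with telmisartan, irbesartan and pioglitazone may share vehicle RNA, so the likeness of their values is not independent evidence.

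All 11 fibroblast and preadipocyte marker genes tested were lower with each drug, with medians of -1.19 with pioglitazone, -0.81 with telmisartan and -0.73 with irbesartan, beside the lower Stat3. Of 11 adipocyte markers, 1 was higher and 8 lower with pioglitazone, none and 6 with telmisartan, and 3 and 4 with irbesartan. Of all features 23.6% were higher and 26.3% lower with pioglitazone, 19.9% and 21.1% with telmisartan, and 14.4% and 16.9% with irbesartan. Of 8 lymphocyte markers, 3 were higher and none lower with pioglitazone. None passed the threshold by limma with telmisartan or irbesartan (0 and 0 at an unadjusted p under 0.05). Most adipocyte markers were thus lower with pioglitazone and telmisartan (medians -0.39 and -0.27), as the fibroblast markers were. The adipocyte median with irbesartan was 0.01. Without telmisartan array 2, 9, 8 and 4 adipocyte markers were lower with pioglitazone, telmisartan and irbesartan. The fibroblast and adipocyte lists each hold only 11 tested genes. The lymphocyte list is shorter, and nothing is read from its counts. Ratios show no level, so the presence of a cell type cannot be read from them, and the part of cell makeup in the IRF and STAT values was not tested. In bulk RNA, fewer cells of a type and less RNA per cell cannot be told apart.

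The features most like each member over the 12 arrays, after removal of the channel-order coefficient, were sought among 13910 features as a description, and the arrays share drug groups. For Irf7 they were Eif3f, Pros1 and Nr4a1, with a Pearson correlation of 0.975, 0.971 and 0.970. For Stat2 they were Nup155, Dnajb11 and Uvrag (0.971, 0.964 and 0.959). For Irf9 they were Nup50, Setd7 and Dennd10 (0.978, 0.978 and 0.961), a likeness that includes telmisartan array 2. For Stat3 they were Ap3m1, Spin1 and Yars (0.913, 0.892 and 0.889), and for Irf1 Syde1, Rassf6 and Peli1 (0.973, 0.967 and 0.955). For Irf2 they were Tmem131l, Dnajc22 and Lifr (0.950, 0.903 and 0.893), and for Irf3 Bola3, Prelid3b and Tpsab1 (0.921, 0.920 and 0.915). For Irf5 they were Igf1r, Epb41l2 and Olfr1228 (0.869, 0.867 and 0.863), and for Irf8 Specc1, Dse and Eya3 (0.868, 0.864 and 0.859). These are the highest of many correlations, so their size is partly a product of the search. A correlation follows the pattern over arrays and not the sign against vehicle. Ap3m1 fitted at 0.37, 0.40 and 0.23 and Yars at 0.42, 0.45 and 0.28 with pioglitazone, telmisartan and irbesartan, where Stat3 was lower. Nup155, Dnajb11, Nup50 and Dennd10 also lay above 0 with each drug, while Spin1, Uvrag and Setd7 lay below 0.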

How the data were processed

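The deposited table holds 1 log10 ratio of the channels per spot and array, per the values of the file, which end at -2 and 2 and have array medians within 0.00264 of 0. The scanner, background correction and normalization are not given in the sources used here. Ratios were converted to log2 and turned to drug over vehicle from the channel labels, taking them as channel 2 over channel 1. Of 22393 spots, 18218 had 1 gene symbol, 16 several and 4159 none in the platform annotation, and 18175 symbols were matched to RefSeq by Entrez ID. Left out were 471 spots with no gene whose mean log10 ratio lay beyond 0.3 with one sign in both channel orders, as control spots would. Sets of repeated spots (48) were averaged, giving 21486 features, of which 17217 had values on at least 3 of 4 arrays of each drug. The fit was made with limma 3.58.1 in R 4.3.3, after a test on simulated data. Samples were grouped by the channel labels. Members and lists were chosen with earlier results of these data known. The text names every member, every tested receptor, Janus kinase and other IRF or STAT, and otherwise some of the genes of a list that are among its 6 largest called values in a comparison, and for likeness the 3 features with the highest correlation. The marker lists are given as counts. Array numbers were not used to pair samples in the main fit (below). Alternatives changed the channel-order term, scaling, weights, filter, spots and samples.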

Additional observations from a re-analysis of the deposited data

How the results depend on the processing

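Of 54 member values, 19 passed the threshold and 5 of these held under every alternative run: Stat3 with each drug, Irf7 with pioglitazone and Stat2 with irbesartan. Counts below run in the order pioglitazone, telmisartan and irbesartan over vehicle, then pioglitazone over telmisartan, pioglitazone over irbesartan and telmisartan over irbesartan. In the main analysis 4, 3, 3, 4, 3 and 2 members and 8587, 7067, 5393, 2526, 3113 and 1615 features passed. All counts are from limma, and causes were not tested.

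Leaving out 1 array at a time gave 3 to 6, 3 to 4, 2 to 4, 1 to 4, 1 to 3 and 1 to 2 members, and 7320 to 9400, 6002 to 7542, 4391 to 6001, 1764 to 2565, 2193 to 3808 and 1014 to 2090 features. Without a channel-order coefficient 2 members passed for pioglitazone, 1 for telmisartan and 0 in the 3 differences (3, 2 and 2 at an unadjusted p under 0.05), with 3439 features for irbesartan and 838, 1044 and 266 in the differences. With a coefficient per drug 5 members passed for telmisartan and 2564 features for telmisartan over irbesartan. Scaled arrays gave 1624 features for pioglitazone over telmisartan and 1657 for pioglitazone over irbesartan. Drugs or pairs fitted alone gave 1 member for telmisartan, 1 for pioglitazone over telmisartan and 1 for telmisartan over irbesartan, the last with 900 features.

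The arrays share numbers 1 to 4. With the array number as a replicate block, 1 member passed for pioglitazone over telmisartan and 1 for pioglitazone over irbesartan, and the other counts moved by less than 1.5 times. Same-numbered arrays of different drugs had residuals correlated at -0.359 to 0.066 (median -0.191). Arrays of different drugs with the same channel order but another number had -0.293 to 0.071 (median -0.189). Same-numbered arrays were thus no more alike, and the number was not used to pair samples. The shared channel-order term lowers both sets of correlations, so shared vehicle RNA cannot be judged from them.

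The other alternatives were chosen after seeing the data. Arrays of one drug and channel order as a random block gave 2, 1 and 1 members in the differences and 938 features for telmisartan over irbesartan. Their averages gave 2 members for pioglitazone, 1 for telmisartan and 0 in each difference (2, 1 and 2 at an unadjusted p under 0.05), with 5470, 3755, 2529, 25, 42 and 0 features (1991 at an unadjusted p under 0.05 for the last). Arrays with the drug in channel 1 alone gave 0 members (3 unadjusted) and 1432 features for pioglitazone over telmisartan and 1 member for pioglitazone over irbesartan. Those with it in channel 2 alone gave 1, 1 and 0 members (3 unadjusted for the last) and 670, 883 and 16 features.

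Signs turned in 21 cases, none past the threshold before or after. Stat2 with telmisartan was -0.0359 with array weights and ran from -0.0449 (without telmisartan array 2) to 0.0805 with 1 array left out, and Irf7 with telmisartan from -0.109 to 0.019 (without telmisartan array 1). For pioglitazone over telmisartan, Stat3 was 0.0033 with scaled arrays, 0.0025 in channel 1 alone and -0.0271 to 0.0026 with 1 array left out, and Irf2 was -7e-04 with array weights and -0.0287 to 0.0278 with 1 array left out. For pioglitazone over irbesartan, Irf2 was 0.0139 with scaled arrays, 0.0644 in channel 1 alone and -0.0432 to 0.0232 with 1 array left out, Irf5 was -0.0549 to 0.0319 with 1 array left out, and Stat3 was -0.0148 in channel 2 alone. For telmisartan over irbesartan, Irf2 was 0.0080 with scaled arrays, 0.0641 in channel 1 alone and -0.0455 to 0.021 with 1 array left out, and Irf7 was -0.0464 in channel 1 alone. Signal over background is unknown, and the number of arrays limits the precision.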

Other observations

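Genes that IRF4, IRF3 or STAT5 are known to control in fat cells were also measured, 9 in all. By limma 3 were higher and 5 lower with pioglitazone, 3 and 6 with telmisartan, and 3 and 3 with irbesartan. The shares of all features were 23.6% and 26.3%, 19.9% and 21.1%, and 14.4% and 16.9% in that order. The list is short, and nothing is read from its counts. Ppargc1a, the coactivator of mitochondrial genes, was 0.42 with pioglitazone, -0.13 with telmisartan and 0.28 with irbesartan, each past the threshold. Fasn, the fatty acid synthase, was -0.50 with pioglitazone and -0.21 with telmisartan, and it was -0.01 with irbesartan, which missed the threshold. Igf1 was 0.29, 0.23 and 0.21 in the same order, and the STAT5 target Cish was -0.20, -0.34 and -0.34. Pnpla2, the main triglyceride lipase, was 0.35, 0.25 and 0.42, while Lipe, the hormone-sensitive lipase, was -0.22 with pioglitazone and -0.42 with telmisartan and missed the threshold with irbesartan at 0.01.

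After removal of the channel-order coefficient, none of 27 groups of 4 arrays held a member value that stood apart by Dixon's test. Irf9 on telmisartan array 2 was at 0.89 before that removal, beside 0.16 for the next array, and at 0.84 after it, beside 0.18. It thus still lay far above the others, and with 4 arrays the test flags only extreme gaps.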
